A study of Mus musculus with 9 samples.

Results

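Type I interferon response genes are genes whose transcription rises when a cell senses interferon alpha or beta. A list of 49 mouse symbols of this kind was examined in LSK cells, the fraction of bone marrow without lineage markers and with Sca-1 and c-Kit, which holds the blood stem cells and early progenitors. Members were listed symbols with a deposited value of at least 1 in at least 3 of the 9 libraries. The rule was met by 48 of the 49 symbols, out of 14461 genes in the deposited table, and Mx2 was not analysed here. None of the 48 failed the filter on low values.

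The cells came from parabiotic mice, which are joined surgically and share a circulation, kept under specific-pathogen-free conditions. Each of the 3 groups has 3 RNA-sequencing libraries. Circulating libraries hold LSK cells labelled as strain C57BL/6. Per the series' design text, these cells had travelled to the marrow of an irradiated partner. Irradiated libraries hold LSK cells labelled as strain C57BL/6 and as irradiated, and endogenous libraries hold LSK cells labelled as strain B6SJL CD45.1. The strain label therefore changes with the group in each comparison against endogenous cells, and strain and group cannot be told apart there. The sources used here state no radiation dose, time, age or number of animals behind a library. Nothing in the labels ties the 3 libraries of a group to different animals. The p-values below therefore measure library-to-library spread, part of which may be technical.

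As background, interferon alpha and beta bind the receptor pair Ifnar1 and Ifnar2 and activate the kinases Jak1 and Tyk2. These phosphorylate STAT proteins, among them Stat2, which acts with Irf9 in the complex ISGF3, and ISGF3 binds the interferon-stimulated response element in the promoters of its target genes. The products block viral entry, sense or degrade foreign RNA, attach the ubiquitin-like protein Isg15 to other proteins, and feed back on the pathway. Stem cells are known to keep a set of these genes expressed without infection, and interferon can drive resting blood stem cells into division.

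Some members hold the letters of the response element in their promoters. Promoter sequence is shown for the 5 genes that differed below and held these letters. Sequences are RefSeq promoter windows (GRCm38.p6, 250 bases before to 50 after the gene start), read 5′ to 3′ on the gene's strand. Capitals mark the letters GAAANNGAAA, or their reverse complement, which is the core spacing of the response element. Of the 48 members 38 had a window, and 19 of those (50.0%) held the letters on either strand. The letters were found in 399 of 9915 tested genes with a window (4.02%) and in 3.44% of all 32851 windows. Among members that differed in at least 1 comparison 5 of 12 held them, and among the others 14 of 26. Of those that differed, Ifitm1, Ifi44, Oasl2, Irf9, Adar, Trim25 and Uba7 had a window without the letters. A match is a description of letters, not of a bound site.
Ifit1, chr19:34640739-34640870, plus strand: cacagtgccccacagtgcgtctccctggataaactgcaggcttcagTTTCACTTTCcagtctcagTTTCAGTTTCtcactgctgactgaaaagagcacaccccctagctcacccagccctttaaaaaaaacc
Isg15, chr4:156200819-156200968, minus strand: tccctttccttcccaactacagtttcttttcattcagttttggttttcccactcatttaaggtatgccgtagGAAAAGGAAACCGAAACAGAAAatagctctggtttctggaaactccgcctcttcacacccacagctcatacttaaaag
Rsad2, chr12:26456453-26456602, minus strand: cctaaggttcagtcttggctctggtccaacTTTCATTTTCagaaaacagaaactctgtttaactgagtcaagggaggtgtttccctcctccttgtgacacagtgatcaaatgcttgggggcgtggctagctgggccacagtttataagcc
Ifitm3, chr7:141010714-141010743, minus strand: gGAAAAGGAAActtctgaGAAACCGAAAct
Ddx58, chr4:40239802-40239831, minus strand: tgaggcagTTTCGATTTCctatggccagcc
The Ifit1 stretch holds 2 matches and the Isg15 stretch 3 overlapping ones, while the Rsad2 stretch holds 1. The 2 Ifitm3 matches and the Ddx58 match lie just after the gene start. A second motif, TTCNNNGAA, which reads the same on both strands and is the letter pattern of gamma-activated sites, was in 9 of the 38 windows (23.7%) and in 8.30% of tested genes with a window.

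The deposited values are a normalised signal, estimated counts multiplied by a constant of each library and not divided by gene length, so levels are compared between groups and not between genes. Recovered depth was 14065855 to 27012345 estimated counts per library, and a count of 0 corresponds to a value of 0.0182 to 0.0376. Values are given as mean ± SD over n = 3 libraries per group. The 6 genes of the LSK gate list were detected and summed to 1645 to 2651 in circulating, 2300 to 2571 in irradiated and 3349 to 3685 in endogenous libraries. The median SD of a gene on the log2(value + 1) scale was 0.382 in circulating, 0.213 in irradiated and 0.262 in endogenous libraries.

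Interferon response genes that differed between circulating and endogenous LSK cells were lower in the circulating cells. In limma's fit over 13771 genes, 15 of the 48 members fell at an adjusted p under 0.05, none rose, and 33 were not called. The same test called 3.3% of all tested genes lower. The median member difference was -0.68 on the log2(value + 1) scale, beside -0.04 for all tested genes, and 44 of 48 estimates were below 0. The 4 above 0 were Cmpk2, Ifi47, Dtx3l and Bst2, and the last 3 of these were below 0 when libraries were scaled by size alone. Groups did not overlap, with circulating lower, for 28 members, beside 12.9% of all tested genes. One circulating library stood nearer to the other groups. Relative to each gene's mean over the 9 libraries, the average member level was -0.10 in circulating replicate 1, against -0.45 and -0.47 in replicates 2 and 3. The irradiated libraries lay between -0.15 and 0.00, and the endogenous libraries between 0.33 and 0.48. Without circulating replicate 1 the fit called 27 members, of which 26 were lower and Cmpk2 was higher, and it called 16.3% of all tested genes in either direction. With only the 2 groups compared in the fit, 5 members were called, beside 1.74% of all tested genes called in either direction.

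**Figure D1:**
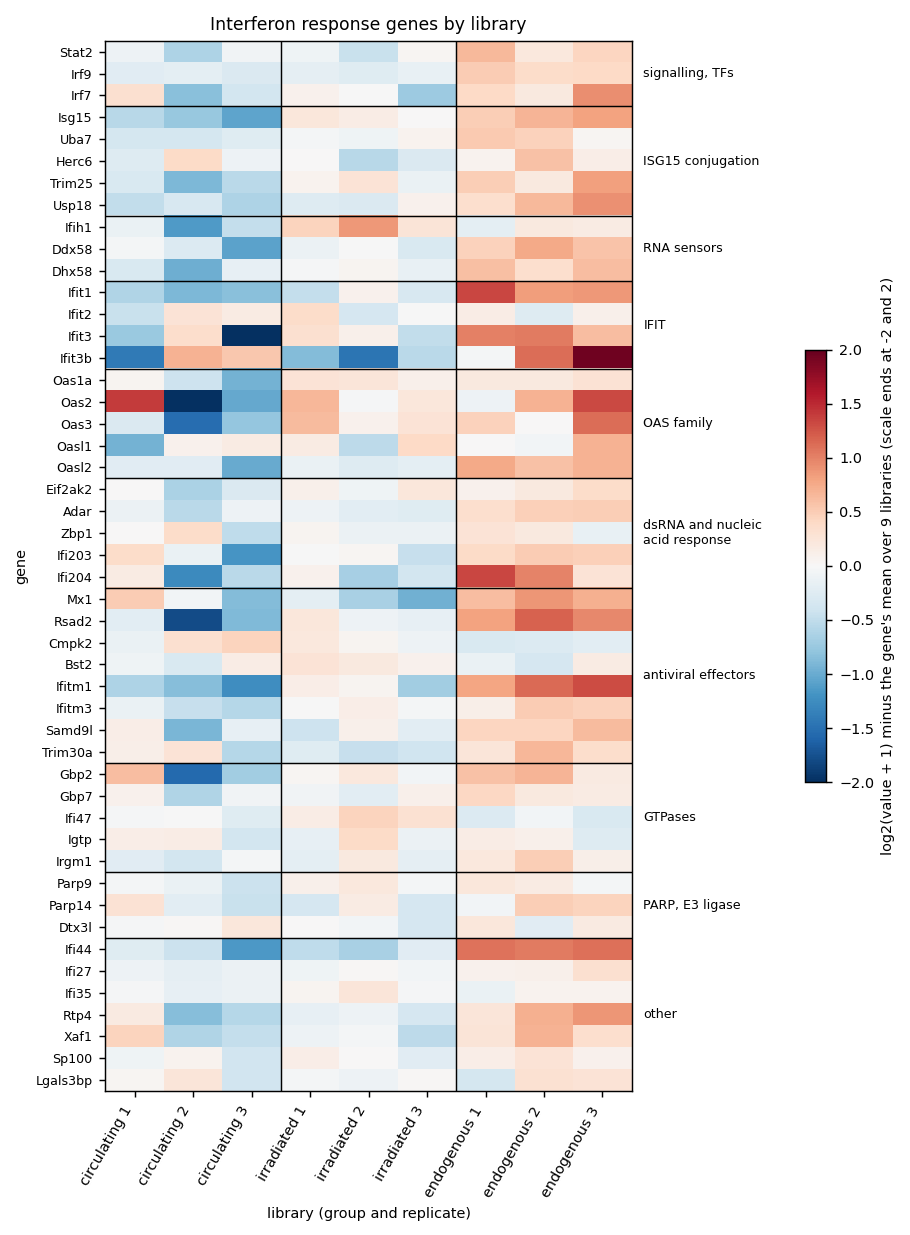
Each row is an interferon response gene, grouped by role, and each column a library; colour is log2(value + 1) minus the gene's mean over the 9 libraries, with the scale ended at -2 and 2. The endogenous columns are mostly above the mean, with the endogenous group mean highest for 40 of 48 genes, and the circulating columns are mostly below it, with the circulating group mean lowest for 35.

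Among the factors that carry the interferon signal, Irf9 fell and Stat2 and Irf7 did not pass the test. Irf9, the DNA-binding subunit of ISGF3, read 112, 114 and 107 in the circulating libraries, 116, 111 and 119 in the irradiated and 188, 171 and 173 in the endogenous libraries. Both C57BL/6 groups lay below every endogenous library, and the difference from endogenous was -0.67 (SE 0.12, adjusted p = 0.0105, limma) in circulating cells. Stat2, the subunit that activates transcription, read 28.6, 19.6 and 29.3 in circulating, 29.0, 22.3 and 31.5 in irradiated and 48.7, 35.8 and 41.6 in endogenous libraries. No circulating library reached an endogenous one, but the difference of -0.69 had an adjusted p of 0.0942. Irf7, which amplifies interferon production, read 32.2, 13.9 and 19.6 in circulating, 27.2, 25.5 and 15.1 in irradiated and 33.9, 29.4 and 49.6 in endogenous libraries. The circulating and endogenous ranges of Irf7 overlapped, the irradiated values lay below the endogenous ones, and the circulating difference from endogenous was -0.80 (95% interval -1.55 to -0.05, adjusted p = 0.161).

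The Isg15 conjugation pathway had 4 of 5 members lower in circulating cells, with a median difference of -1.08. Isg15, the modifier itself, read 4.81, 4.06 and 3.14 in circulating, 9.06, 8.52 and 7.56 in irradiated and 11.1, 12.7 and 13.9 in endogenous libraries. Its 3 groups did not overlap, and the endogenous mean was 3.14-fold the circulating mean (log2 difference -1.45, SE 0.30, adjusted p = 0.0191). Uba7, the enzyme that activates Isg15, read 159, 159.8 and 172 in circulating, 199, 192 and 214 in irradiated and 292, 279.9 and 209.9 in endogenous libraries. Every circulating value was the lower, although endogenous replicate 3 lay inside the irradiated range, and the difference was -0.65 (SE 0.14, adjusted p = 0.0212). Usp18 removes Isg15 from proteins and restrains the interferon receptor. It read 17.9, 20.3 and 16.3 in circulating, 21.3, 20.7 and 27.3 in irradiated and 32.5, 40.6 and 49.4 in endogenous libraries. The endogenous libraries stood above all 6 others, with a difference of -1.11 (SE 0.23, adjusted p = 0.0201). Trim25, a ubiquitin ligase that acts with the RNA sensor Ddx58, read 28.9, 18.9 and 24.5 in circulating, 37.9, 43.5 and 32.8 in irradiated and 50.9, 41.3 and 64.5 in endogenous libraries. Circulating values lay below both other groups (difference -1.08, SE 0.24, adjusted p = 0.0224). The ligase gene Herc6 was not called, at -0.26 with an adjusted p of 0.511.

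Of the 3 cytosolic sensors of viral RNA, Ddx58 (RIG-I) and Dhx58 (LGP2) fell and Ifih1 (MDA5) was not called. Ddx58 read 76.4, 65.2 and 37.1 in circulating, 72.1, 78.4 and 63.5 in irradiated and 109, 134 and 118 in endogenous libraries. Circulating replicate 3 was the lowest, endogenous libraries stood above all others, and the difference was -1.06 (SE 0.24, adjusted p = 0.0243). Dhx58 read 35.4, 21.9 and 39.1 in circulating, 42.9, 45.8 and 39.5 in irradiated and 67.0, 55.4 and 67.8 in endogenous libraries. Again the endogenous group stood apart on top, and the circulating difference was -0.99 (SE 0.23, adjusted p = 0.0259). Ifih1 was ordered otherwise: its values were 20.6, 9.83 and 16.1 in circulating, 31.1, 42.3 and 27.3 in irradiated and 19.7, 26.1 and 25.5 in endogenous libraries. The irradiated group was the highest and did not overlap either other group, but no Ifih1 difference was called.

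The IFIT genes, whose products bind foreign RNA, form a cluster on chromosome 19, and 1 of the 4, Ifit1, fell. Ifit1 read 10.7, 8.61 and 9.03 in circulating, 11.9, 17.9 and 13.4 in irradiated and 44.1, 30.9 and 31.7 in endogenous libraries. Its groups were separated in that order, and the endogenous mean was 3.76-fold the circulating mean (log2 difference -1.79, SE 0.27, adjusted p = 0.00629). Ifit2, which ends 64.5 kb before Ifit1, read 37.5, 62.1 and 57.2 in circulating, 66.2, 40.4 and 50.7 in irradiated and 57.0, 42.8 and 55.1 in endogenous libraries. All 3 Ifit2 groups overlapped, and the circulating difference from endogenous was 0.00 (95% interval -0.54 to 0.53). Ifit3 and Ifit3b lie between them and are near-identical copies, so the assignment of their reads is uncertain. Their differences were -1.75 and -1.07, with adjusted p-values of 0.0741 and 0.302, and 2 libraries held 3 or fewer estimated counts of Ifit3b.

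In the OAS family, whose enzymes make the activator of RNase L, Oasl2 fell and the other 4 members were not called. Oasl2 read 86.7, 86.5 and 50.4 in circulating, 92.3, 85.1 and 89.2 in irradiated and 172, 153 and 166 in endogenous libraries. The endogenous libraries stood well above the rest (difference -1.17, SE 0.20, adjusted p = 0.0093). Its neighbour Oasl1, 11.0 kb away, was at -0.45 with an adjusted p of 0.481. Oas2 read 24.9, 0.113 and 3.82 in circulating, 14.6, 8.63 and 10.5 in irradiated and 8.19, 14.9 and 23.6 in endogenous libraries. The circulating group held both the highest and the lowest library, and the Oas2 difference of -1.57 had a standard error of 0.87 and an adjusted p of 0.277. Oas3 was at -1.40 (adjusted p = 0.0542) and Oas1a, a member of a family of similar copies, at -0.66 (adjusted p = 0.105). For both, every circulating value lay below every endogenous value.

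Of 5 genes for the response to double-stranded RNA and nucleic acid, Adar fell. Adar, the enzyme that edits adenosine to inosine in double-stranded RNA, read 55.1, 40.5 and 55.2 in circulating, 55.5, 51.5 and 50.2 in irradiated and 75.4, 83.2 and 84.4 in endogenous libraries. The C57BL/6 groups overlapped each other and lay below the endogenous group, with a circulating difference of -0.69 (SE 0.17, adjusted p = 0.0335). The other 4 were not called. They were Eif2ak2 (PKR) at -0.52, Zbp1 at -0.15, and the neighbouring Ifi203 and Ifi204 at -0.76 and -1.42, the last at values of 0.436 to 2.90 in circulating libraries.

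Among 8 antiviral effectors, Ifitm1, Ifitm3 and Rsad2 fell and Mx1, Bst2, Cmpk2, Samd9l and Trim30a were not called. Ifitm1, a membrane protein that blocks the fusion of viruses with cells, read 130.2, 111 and 84.4 in circulating, 219, 209.6 and 123 in irradiated and 348, 440.4 and 497 in endogenous libraries. This was the largest difference in this comparison among the 48 members, the endogenous mean being 3.94-fold the circulating mean (log2 difference -1.98, SE 0.23, adjusted p = 0.00257). Ifitm3, its relative 39.8 kb away on chromosome 7, read 251, 199 and 184 in circulating, 274, 302 and 269 in irradiated and 298, 391 and 381 in endogenous libraries. Circulating values were lower than all others, and the difference from endogenous cells was -0.76 (SE 0.15, adjusted p = 0.0158). Rsad2 (viperin) makes a nucleotide that stops viral RNA synthesis. It read 15.7, 4.61 and 9.55 in circulating, 21.8, 17.1 and 16.3 in irradiated and 33.0, 43.0 and 36.8 in endogenous libraries, 3 groups with no overlap. The Rsad2 difference was -1.94 (SE 0.36, adjusted p = 0.0128).

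Cmpk2, a mitochondrial nucleotide kinase gene that lies 12.8 kb from Rsad2 on the opposite strand of chromosome 12, had an estimate above 0. Its values were 38.4, 53.3 and 58.1 in circulating, 49.2, 44.2 and 39.3 in irradiated and 34.0, 35.0 and 36.6 in endogenous libraries. Every endogenous value was lower than all others, and the circulating difference was 0.47 (95% interval 0.04 to 0.91, adjusted p = 0.157), not a call. Bst2 (tetherin), which holds budding viruses at the cell surface, read 55.6, 47.8 and 65.6 in circulating, 71.9, 68.1 and 63.2 in irradiated and 53.8, 46.9 and 66.4 in endogenous libraries. Its circulating and endogenous ranges overlapped almost wholly, with a difference of 0.02 (95% interval -0.39 to 0.42). Mx1, a dynamin-like GTPase against influenza-type viruses, read 7.46, 4.75 and 2.28 in circulating, 4.21, 2.82 and 2.07 in irradiated and 8.12, 9.99 and 8.74 in endogenous libraries. No Mx1 value in a C57BL/6 group reached the endogenous range, and the circulating difference of -0.87 had an adjusted p of 0.197. Samd9l and Trim30a were at -0.81 and -0.48, with adjusted p-values of 0.0662 and 0.169.

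**Figure D2:**
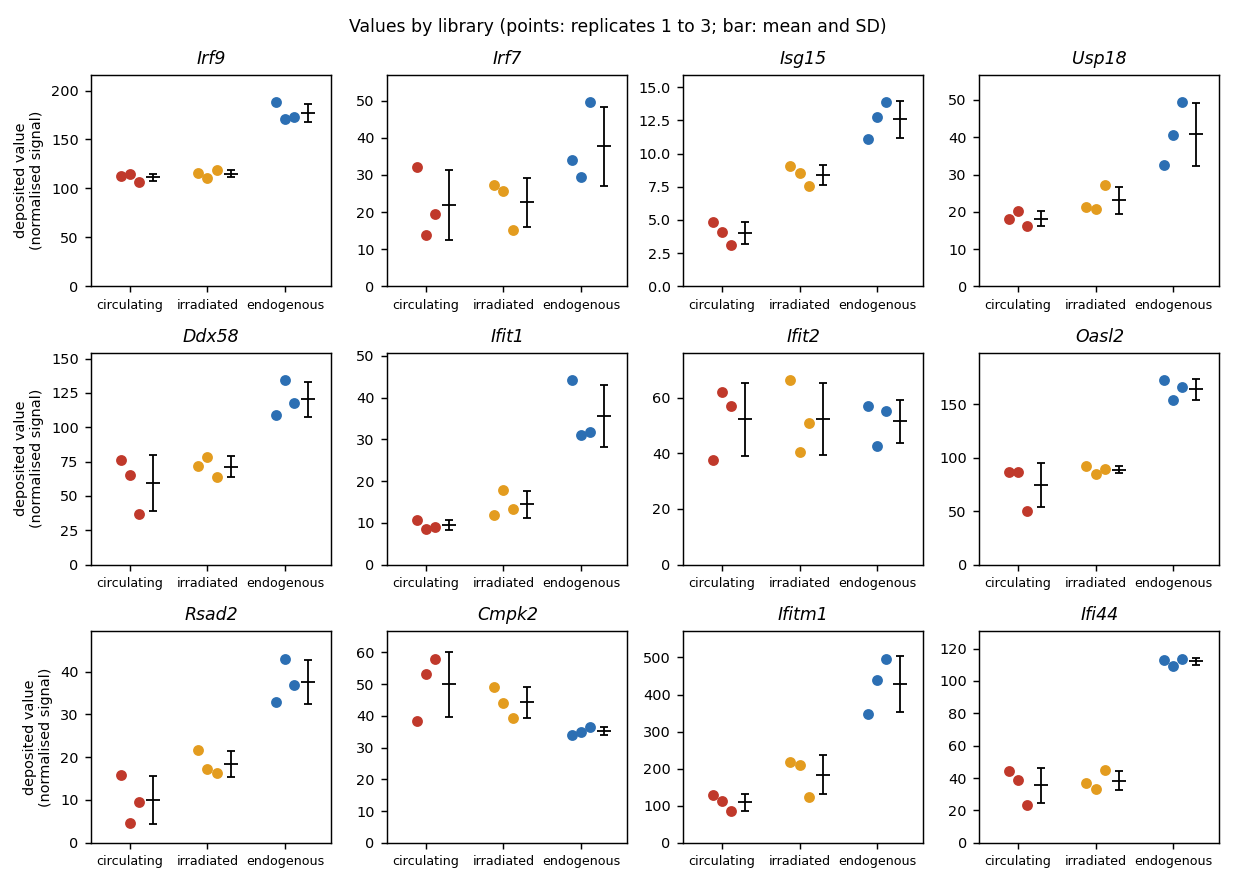
Deposited values (y axis, normalised signal, from 0) of 12 interferon response genes in each library, with points for replicates 1 to 3 and a bar for the group mean and SD. Irf9 and Ifi44 show 2 low groups and a high endogenous group, Isg15 and Rsad2 show 3 separate levels, and Ifit2 shows groups that overlap.

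None of the 5 interferon-inducible GTPases, which act on vacuoles that hold intracellular parasites, was called in circulating cells. Gbp2 read 102, 22.0 and 40.5 in circulating, 68.1, 77.0 and 63.8 in irradiated and 100.3, 106 and 74.9 in endogenous libraries. Circulating replicate 1 sat within the endogenous range and replicates 2 and 3 below every other library, and the difference of -1.02 had an adjusted p of 0.141. The other GTPase differences were -0.45 for Gbp7, -0.48 for Irgm1, -0.02 for Igtp and 0.12 for Ifi47. The genes Parp9, Parp14 and Dtx3l, which encode ADP-ribosyltransferases and a partner ubiquitin ligase, were also not called, with estimates of -0.31, -0.41 and 0.02. Parp9 and Dtx3l overlap on opposite strands of chromosome 16, and this chemistry does not separate their reads by strand.

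The remaining 7 members held 2 that fell. Ifi44, an interferon-induced gene whose product limits viral replication, read 44.3, 38.9 and 23.1 in circulating, 36.8, 33.4 and 45.0 in irradiated and 113, 109.6 and 114 in endogenous libraries. The 3 endogenous values were close together and more than double any other (difference -1.68, SE 0.23, adjusted p = 0.00476). Rtp4, a receptor chaperone, read 83.6, 40.3 and 49.6 in circulating, 65.6, 69.2 and 58.4 in irradiated and 87.8, 122 and 137 in endogenous libraries. Circulating replicate 1 came close to the lowest endogenous value without reaching it, and the difference was -1.03 (SE 0.26, adjusted p = 0.0341). Ifi27, Ifi35, Xaf1, Sp100 and Lgals3bp were not called, at -0.31, -0.11, -0.65, -0.30 and -0.11. Across 17 alternative settings Ifit1, Oasl2, Ifitm1 and Ifi44 were called lower each time and Rsad2 in 16, while Adar was called in 8 and Rtp4 in 7. With single libraries left out, the fewest members were called without an endogenous one, 6 without replicate 2 and 7 without replicate 1 or replicate 3. Those fits called 2.21%, 1.92% and 3.55% of all tested genes in either direction.

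**Figure D3:**
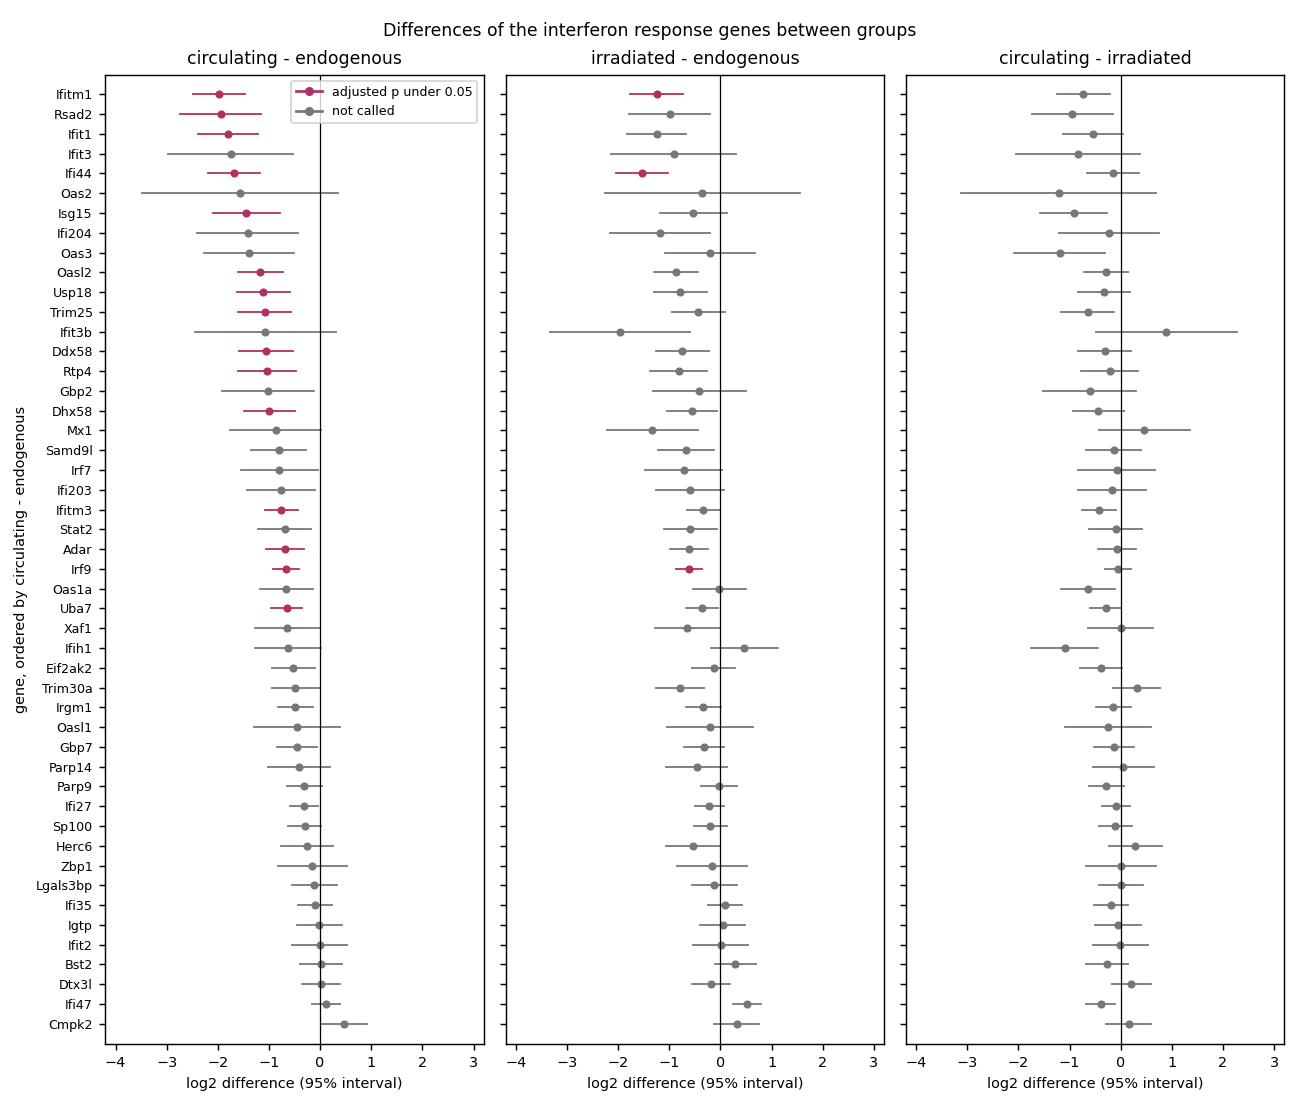
Differences on the log2(value + 1) scale (points) with 95% intervals (lines) for the 48 interferon response genes in 3 comparisons, ordered by circulating minus endogenous; coloured points have an adjusted p under 0.05. There are 15 coloured points for circulating minus endogenous, 3 for irradiated minus endogenous and 0 for circulating minus irradiated.

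Irradiated cells were compared with the same 3 endogenous libraries, so this comparison shares its reference with the one above. Here 3 of 48 members fell, Ifi44, Ifitm1 and Irf9, and none rose, beside 0.131% of all tested genes called lower. The median member difference was -0.45 against -0.01 for all tested genes, with 41 of 48 estimates below 0. Irradiated values lay wholly below endogenous values for 25 members, beside 12.5% of tested genes. Ifi44, with irradiated values of 33.4 to 45.0, differed by -1.53 (SE 0.23, adjusted p = 0.0168). Ifitm1 differed by -1.25 (SE 0.23, adjusted p = 0.0415), and its irradiated replicate 3 was well below replicates 1 and 2. Irf9 differed by -0.62 (SE 0.12, adjusted p = 0.0425), with the 3 irradiated values within 111 to 119. All 3 calls were lost, and 0 members were called, when any irradiated or any endogenous library was left out, in fits that called 6 to 32 genes in all. The count was 5 without circulating replicate 1 and 7 without circulating replicate 3, beside 1.94% and 1.78% of all tested genes called in either direction. The circulating libraries enter this comparison through the shared estimate of spread and the choice of genes tested. With sample weights 15 members were called, beside 6.51% of all tested genes called in either direction; 14 were lower and Ifi47 was higher.

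Other members in irradiated cells had estimates in the same range without passing the test. Ifit1 was at -1.25 (adjusted p = 0.0619), Oasl2 at -0.88 (adjusted p = 0.0749) and Mx1 at -1.33 (adjusted p = 0.155). The Isg15 pathway was not called in any of its 5 members: Isg15 was at -0.53, Usp18 at -0.79, Uba7 at -0.36, Trim25 at -0.43 and Herc6 at -0.54. The RNA sensors Ddx58 and Dhx58 were at -0.75 and -0.56, while Ifih1 was at 0.47. Ifih1, Cmpk2 and the GTPase gene Ifi47 were the 3 of 48 members whose irradiated values all lay above the endogenous ones. The same held for 2093 of all 13771 tested genes. Ifi47 read 342, 419.9 and 383 in irradiated and 256, 295 and 250.5 in endogenous libraries. That difference was 0.51 (SE 0.13), with an adjusted p of 0.0976.

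**Figure D4:**
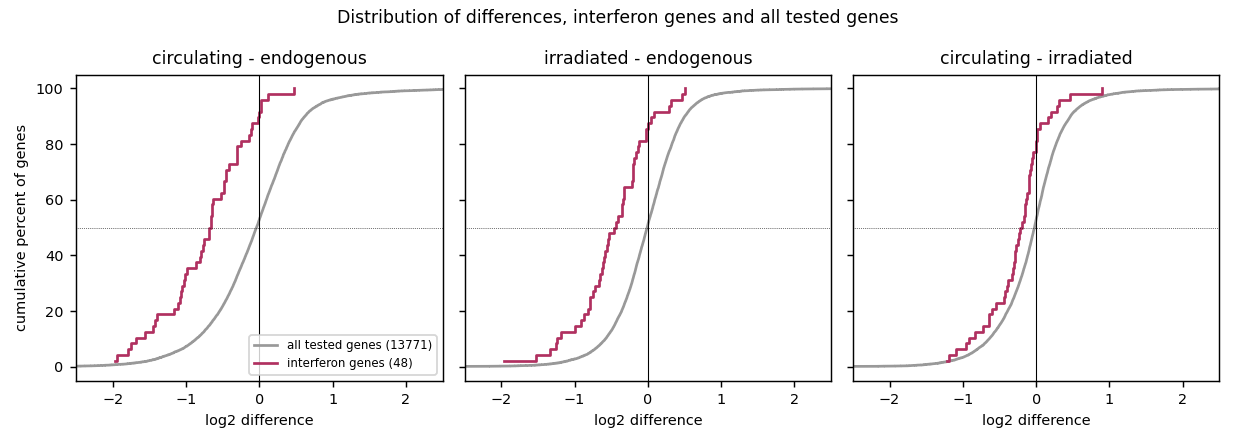
Cumulative percent of genes (y axis) against the log2 difference (x axis) in each of 3 comparisons, for the 48 interferon response genes and all 13771 tested genes. The interferon curve lies left of the curve for all genes over most of each panel, with medians of -0.68, -0.45 and -0.21 beside -0.04, -0.01 and -0.02.

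Circulating and irradiated cells carry the same strain label. The sample titles give same-numbered libraries of these groups a shared code whose meaning is not stated. A further title code is shared by circulating and endogenous libraries, differs in irradiated ones, and is not explained either. The average member level was -0.10, -0.45 and -0.47 in circulating replicates 1 to 3 and 0.00, -0.07 and -0.15 in irradiated replicates 1 to 3. The circulating library was the lower at each number. No member was called in either direction, and the smallest adjusted p was 0.25, for Ifih1. The test called few genes at all, 0.029% in either direction and 0.00726% lower, of all tested genes. At an unadjusted p under 0.05 there were 9 of 48 members, beside 11.4% of all tested genes. The median member difference was -0.21, beside -0.02 for all tested genes, and 38 of 48 estimates were below 0. Circulating values lay wholly below irradiated values for 14 members, beside 9.26% of tested genes. They lay wholly above for 0 members, beside 1028 of all 13771 tested genes. Ifih1 differed by -1.10 (95% interval -1.75 to -0.45) and Isg15 by -0.92 (95% interval -1.57 to -0.26, adjusted p = 0.322). Ifitm1 differed by -0.73 (95% interval -1.25 to -0.22, adjusted p = 0.316), Rsad2 by -0.95 and Trim25 by -0.65. Members with estimates near 0 included Irf9, which differed by -0.05 (95% interval -0.31 to 0.21), Ifi44, by -0.15 (-0.66 to 0.36), and Adar, by -0.07 (-0.44 to 0.30). These intervals bound the difference and do not show that the levels are equal.

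Of 41 tested genes of interferon signalling and nucleic acid sensing outside the members, 3 rose and 0 fell in circulating against endogenous cells, beside 5.33% of all tested genes called higher and 3.3% called lower. None was called in the other comparisons. The 11 listed interferon ligand genes were not analysed here. Of 9 receptor and Janus kinase genes, Ifngr1, a subunit of the interferon gamma receptor, rose in circulating cells, with 491 ± 192 against 205 ± 12.6 in endogenous cells (1.19, adjusted p = 0.0169), and the other 8 were not called. The circulating mean of Ifnar1 was 109.7 ± 19.0, the irradiated 85.7 ± 14.1 and the endogenous 91.2 ± 15.8 (adjusted p = 0.399 for circulating against endogenous). Ifnar2 differed by -0.08 (95% interval -0.41 to 0.25). None of 10 STAT and IRF genes outside the members was called in any comparison, with 3 at an unadjusted p under 0.05 in circulating against endogenous cells, beside 26.7% of all tested genes. Irf1 differed by -0.14 (95% interval -0.48 to 0.20). Of 10 negative regulators, Ptpn6, a phosphatase, rose in circulating against endogenous cells (0.41, adjusted p = 0.0406). Of 12 tested genes of nucleic acid sensing, Unc93b1, which carries Toll-like receptors to endosomes, rose in that comparison (0.77, adjusted p = 0.0484).

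A further 68 tested genes known to be induced by interferon, outside the 48 members, were counted by the same test. In circulating against endogenous cells 3 fell and 2 rose, beside 3.3% and 5.33% of all tested genes, and the median difference was -0.30. The ones that fell were Ube2l6, the Isg15-conjugating enzyme, at -0.59 (adjusted p = 0.0186), Shisa5 at -0.53 (adjusted p = 0.0476) and Bst1 at -1.36 (adjusted p = 0.0475). Those that rose were Lgals9, a galectin gene, at 0.52 (adjusted p = 0.022) and Ifi209 at 1.54 (adjusted p = 0.0287). In irradiated against endogenous cells Shisa5 fell, at -0.90 (adjusted p = 0.0224), and Lgals9 rose, at 0.70 (adjusted p = 0.0195), with a list median of -0.24. Of all tested genes 0.472% were called higher there. Ly6a, which encodes Sca-1, is itself interferon-inducible and is part of the sorting gate. Its circulating mean was 137 ± 9.21, its irradiated mean 174 ± 23.9 and its endogenous mean 180.0 ± 12.8, a circulating difference from endogenous of -0.39 (adjusted p = 0.0923).

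Markers of other cell states moved with the groups, and their part in the interferon differences was not tested. In these bulk libraries fewer cells of a type and less RNA per cell cannot be told apart. All 6 granulocyte-monocyte progenitor markers rose in circulating and 5 of 6 in irradiated against endogenous cells; their summed value was 12901 to 39108 in circulating, 7665 to 16182 in irradiated and 2125 to 3066 in endogenous libraries. Of 7 tested monocyte and macrophage markers Ly6c2 and Ccr2 rose in circulating against endogenous cells, with list sums of 638 to 2330, 439 to 969 and 201 to 329. None of 6 tested markers of plasmacytoid dendritic cells, which are strong interferon producers, was called. Bst2, itself a member, is on that list. Of the 6, 4 estimates were above 0 and 2 below in circulating against endogenous cells, with a median of 0.29. The irradiated comparison with endogenous cells also had 4 above and 2 below, with a median of 0.22. The sums of that list were 435 to 571 in circulating, 349 to 466 in irradiated and 361 to 483 in endogenous libraries. Siglech, a defining marker of those cells, was below the filter, with means of 0.256 ± 0.178, 0.416 ± 0.288 and 5.11 ± 5.52 in the same order of groups. Of the 6 gate genes Kit and Procr fell in circulating against endogenous cells, at -1.20 and -1.48. In the same comparison 2 of 5 tested markers of conventional dendritic cells rose (Xcr1 and Clec9a) and 2 of 7 of B cells (Cd79a among them). So did 1 of 2 of NK cells (Nkg7), 1 of 6 of erythroid cells (Klf1) and 1 of 6 of mast cells and basophils (Hdc). Of all tested genes 5.33% were called higher and 3.3% lower there. Estimates were below 0 for 1 of the 5 dendritic, 1 of the 2 NK and 1 of the 6 mast cell and basophil markers, and for 0 of the 7 B cell markers. Sums of the dendritic list were 396 to 801 in circulating, 341 to 492 in irradiated and 653 to 890 in endogenous libraries. Of 10 neutrophil markers 2 fell (Mmp8 and Retnlg), with 7 estimates below 0 and 3 above, and of 2 endothelial and stromal markers 1 fell (Pecam1). Of the erythroid markers 2 had estimates below 0 and 4 above. In irradiated against endogenous cells Nkg7 also rose. This call and those of the 5 progenitor markers stood beside 0.472% of all tested genes called higher in that comparison. No marker was called between circulating and irradiated cells.

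The positions of the members were checked against the strain marker and against overlapping genes. The CD45.1 allele is at Ptprc on chromosome 1, and of the 48 members Ifi203, Ifi204 and Sp100 are on that chromosome, 35.7, 35.6 and 52.4 Mb from Ptprc. None of these was called, so leaving them out of the same fit was bound to keep the 15 calls, then among 45 members. Strain differences elsewhere in the genome were not tested. Among the called members, Irf9, Adar and Usp18 overlap another annotated gene, so some of their reads could belong to Rnf31, Chrnb2 and Gm44148. The mean values of these partners were 20.8, 19.4 and 23.5 for Rnf31, 0.792, 1.60 and 2.24 for Chrnb2, and 1.19, 1.82 and 2.30 for Gm44148, in circulating, irradiated and endogenous cells in turn.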

How the data were processed

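RNA of sorted LSK cells was measured in 9 libraries, 3 each labelled circulating, irradiated and endogenous. Per the labels' protocols, RNA was extracted with a low-input kit, amplified with SMART-Seq v4 and made into libraries with Nextera XT, which keeps no strand. Named in the submitters' processing notes, with no role or order, are limma, RSEM 1.3.1, CASAVA and the build mm10; the annotation and any gene filter are not given in these sources. The values deposited by the authors are a normalised signal: each is an estimated count plus 0.5, times a constant of its column, within 0.001 of the last decimal. Counts recovered this way gave the depths, which cover counting error only.

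Differences were tested with limma 3.58.1 in R 4.3.3 (trend and robust moderation, two-sided) on log2(value + 1), with all 9 libraries in 1 fit of group means. This scale understates changes of low genes. Of 14461 genes 13771 had a value of at least 1 in at least 3 libraries. P-values were adjusted by Benjamini-Hochberg over all of these, with calls under 0.05; intervals are 95% and unadjusted. The script was tested on simulated data. Symbols matched 14405 genes.

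Members and lists were chosen with earlier results of these data known. Values in every library are given for called members and for 10 set genes (Irf7, Stat2, Irf9, Isg15, Ifit1, Oas2, Mx1, Bst2, Ifitm3, Gbp2). Ifih1, Ifit2, Cmpk2 and Ifi47 were chosen after their values were seen. From other lists up to 3 called genes were named, with Ifnar1, Ifnar2, Irf1, Ly6a and B2m; called marker genes were named after their values were seen. Some genes of these lists are not reported here. Alternatives were other pseudocounts (0.1 and 4), no filter, sample weights, voom weights, library-size scaling, fewer groups, a replicate block, each library left out, and members outside chromosome 1.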

Additional observations from a re-analysis of the deposited data

How the results depend on the processing

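The count of members called in circulating against endogenous cells was 15. It became 5 with only the groups compared and ranged from 6 to 27 with each library left out. The median difference of -0.68 became -0.88 when libraries were scaled by size alone, a setting that moved the median of all genes from -0.04 to -0.22. Relative to all genes the member median was -0.64 and -0.66. Leaving out each library gave medians of -0.81 to -0.54. The count in irradiated against endogenous cells was 3. It became 15 with sample weights, beside 6.51% of all tested genes called in either direction. With voom weights it was 5 and with only the groups compared 15. The shares of all tested genes in those settings are not given here, so these counts are not read as a result about the members. With each library left out it was 0 to 7. The count in circulating against irradiated cells was 0 in every alternative run. The causes were not tested. Estimates took the other sign in at least 1 alternative for 7, 8 and 17 of the 48 members in circulating against endogenous, irradiated against endogenous and circulating against irradiated cells, none of them called. Among these were Bst2 (circulating against endogenous), at -0.18 with library-size scaling and between -0.095 and 0.15 with libraries left out, and, in circulating against irradiated cells with libraries left out, Stat2 (-0.24 to 0.080) and Irf7 (-0.39 to 0.19). With a replicate block the counts were 17, 2 and 0. The first stood beside 1147 of all 13771 tested genes called in either direction. The shares for the other comparisons are not given here, so their counts are not read as a result about the members. With the block in the circulating and irradiated libraries alone, a setting chosen after seeing the data, the count was 0. Deviations of same-numbered libraries had correlations of -0.02 to 0.18 over the 3 comparisons. For circulating with irradiated libraries, which share a title code, they were 0.05, 0.03 and 0.18. Libraries of these groups with other numbers gave -0.17 to 0.11. Not every sample was closest to its own number, but 3 libraries per group cannot settle whether the numbers pair the samples. The main fit used no pairs because the labels do not explain the codes. Low counts limit Ifit3b and Oas2, which had 2 libraries and 1 library at or under 3 counts. The reason for these low counts was not tested. The 3 libraries per group limit the precision of the rest.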

Other observations

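Genes of class I antigen presentation are also induced by interferon. Of 17 tested, Psmb9, an immunoproteasome subunit, rose in circulating against endogenous cells (234 ± 33.8 against 162 ± 7.50, log2 difference 0.52, adjusted p = 0.0379, limma), and 16 were not called. Of all tested genes 5.33% were called higher in that comparison. The list medians were -0.01 for circulating and 0.19 for irradiated against endogenous cells, and -0.10 for circulating against irradiated cells. B2m, the class I light chain, had a circulating mean of 3329 ± 546, an irradiated mean of 3532 ± 431 and an endogenous mean of 3468 ± 370.0 (SD, n = 3). Its circulating difference from endogenous was -0.07 (95% interval -0.36 to 0.23). Of 5 genes of the Ly6 family, Ly6c2, a marker of monocyte-committed cells, rose in circulating against endogenous cells (2.78, adjusted p = 0.0194).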
